A study of Mus musculus with 16 samples.

Results

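Accessible chromatin was described here at 10 mouse genes that lie in quantitative trait loci for diabetes and related traits, namely Lepr, Sorcs1, Stxbp5l, Tbc1d1, Tsc2, Nfatc2, Zfp148, Zfp69, Hunk and Ifi202b. Their regions were found by merging all overlapping or touching peaks of the 16 sample lists on chromosomes 1 to 19, which gave 347712 regions, and by keeping those that overlapped a GENCODE gene body or the 3 kb upstream of it. This left 266 regions, from 2 at Zfp69 to 86 at Tbc1d1. The genes were chosen by name, with earlier results of these data known. The study profiled pancreatic islets of the 8 founder strains of the Diversity Outbred mice by ATAC-seq, in which a transposase inserts sequencing adapters into open chromatin. The strains, as labelled, were 129S1_SvImJ (129), A_J (AJ), C57BL/6J (B6), NOD_ShiLtJ (NOD) and NZO_HlLtJ (NZO), which are classical, and CAST_EiJ (CAST), PWK_PhJ (PWK) and WSB_EiJ (WSB), which are wild-derived. Each strain gave 1 female and 1 male sample of islets with no treatment named, so these are the only replicates of a strain. The strain and sex tests below take their error from these pairs, moderated over all tested regions. The tests of strain class and of the share of calls rest on values per strain, over 8 strains. The age of the mice was not given in the sources used here.

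A quantitative trait locus is a stretch of genome whose inherited variants go with differences in a trait, and positional cloning in crosses of inbred strains has tied such loci for obesity and diabetes to single genes. Several of the genes described here act in the insulin-secreting beta cell, where granules laden with insulin must be sorted, docked and fused with the membrane. Others act in the response to leptin, in nutrient sensing, in glucose transport or in transcription. An accessible region within a gene can be its promoter, an enhancer of that gene or an enhancer of a neighbour, and a peak list does not tell these apart.

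On chromosomes 1 to 19 the AJ male had the fewest peaks, 77887, and the WSB female the most, 167051. The median summit signal over regions called in all samples was lowest in the PWK male, at 32, and highest in the CAST male, at 136. The lists hold no read totals, and reads per sample were not used here. All signals below are the summit signal of a sample in a region divided by that sample's median over the shared regions, called scaled signal, and 0 means that no peak was listed, not that the chromatin was closed. Start-site regions of all 8 beta-cell marker genes were called in all 16 samples, and those of Gcg and Irx2, alpha-cell genes, as well. That of Irx1, another alpha-cell gene, was called in 15 samples. Among the delta-cell genes, Hhex was called in 16 samples and Sst in 1. Of 8 acinar marker genes, 4 were called in no sample, and Rbpjl had the most calls, in 8. The duct genes Cftr and Spp1 were called in 16 and 15 samples, but Krt19 in 3 and Sox9 in 1. Among 6 leukocyte genes, Ptprc was called in 14 samples, Csf1r in 7 and 2 in none. Kdr had the most calls of the endothelial genes, in 6 samples. The NZO male had the highest summed start-site signal of all samples for the acinar (1.00), duct (2.02), endothelial (0.764) and leukocyte (1.56) markers, against medians over all 16 samples of 0.270, 0.912, 0.216 and 0.233. The same sample had the lowest sums of all samples for the alpha (4.218) and delta (0.09091) markers, against medians of 5.147 and 0.2905. The part of these other cells in the results was not tested. In bulk islets, fewer cells of a type and less open chromatin per cell cannot be told apart.

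Of the 266 regions, 40 were called in all 16 samples (15%, against 11.8% of all regions and 15.2% of regions in protein-coding genes). Only 1 sample called 82 of them (30.8%, against 46.4% of all regions). Calls in wild-derived samples only made up 78 regions (29.3%, against 36.2%), and calls in classical samples only made up 49 (18.4%, against 22.0%). Regions called in a single strain numbered 98 (36.8%, against 50.8%), of which 22 were called in CAST only (8.27%, against 7.76%). Over regions in protein-coding genes, the shares of these patterns after the first were 40.1%, 33.9%, 18.3%, 44.2% and 7.78%. By place, 28 regions lay within 1 kb of an annotated transcript start, 24 overlapped an exon, 211 lay in introns and 3 lay upstream.

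The genes differed from one another in the number and density of their regions. Tbc1d1 held 19 of the 40 shared regions and 43.4 regions per 100 kb, more than 98.0% of genes of like length, whose median was 15.2. Sorcs1, with the longest span, held 67 regions but only 6 shared ones, at 12.5 per 100 kb. Nfatc2 held 7 shared regions, Stxbp5l 4, Hunk 2, and Zfp148 and Zfp69 1 each. Lepr, Tsc2 and Ifi202b held none, which was also true of 15.4%, 27.1% and 34.2% of genes of like length, respectively. Ifi202b nonetheless had 64.7 regions per 100 kb, a higher density than in 99.3% of genes of like length.

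**Figure D1:**
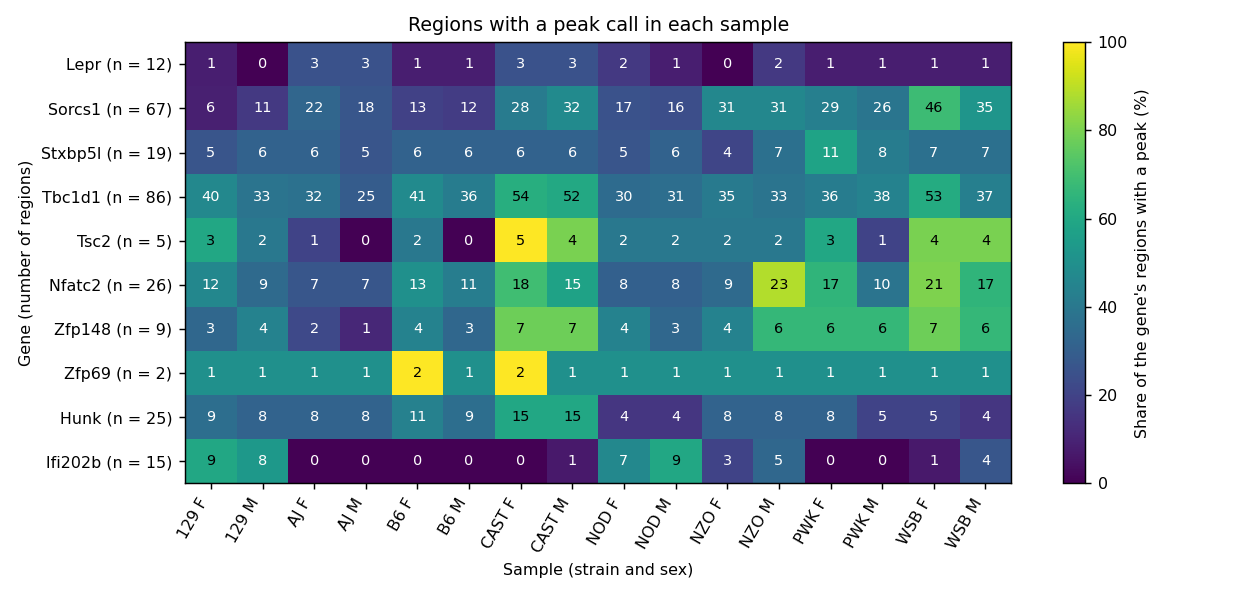
Number of regions with a peak call in each sample (columns, strain and sex, F female and M male) for each gene (rows, with its number of regions); colour gives the share of that gene's regions in percent. Zfp69 had a call in every sample, Ifi202b had none in AJ, B6 or PWK, the WSB female called the most Sorcs1 regions, 46, and the CAST female the most Tbc1d1 regions, 54.

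The lists differed in length, so calls in the 10 genes were also taken relative to all called regions of a sample. The part of list length in the number of calls was not tested. Of every 10000 called regions, 7.07 lay in the 10 genes in the PWK male, the lowest share, and 10.7 in the 129 female, the highest. The means of the 3 wild-derived strains averaged 9.39 ± 0.979 (SD) and those of the 5 classical strains 9.39 ± 0.708. An exact permutation test over the 56 splits of the strains detected no difference (two-sided, p = 1, also after adjustment over 2 tests, with 0.0179 as the smallest p it can give). Females exceeded males by 0.649 ± 1.07 per 10000 (SD over 8 strains), and did so in 5 of the strains, which missed the threshold of a two-sided exact test that flips signs (p = 0.102, adjusted p = 0.203). With equal numbers of peaks taken from every list the excess was 0.617 with an unadjusted p of 0.0078 by the same exact test, the smallest it can give.

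To ask whether strain shifted the signal in regions that every sample called, limma's F test for strain was run on the centred log2 of the summit signal plus 1, with sex in the model, over all 40940 shared regions. At an adjusted p-value under 0.05, 17 of the 40 shared regions of the 10 genes passed (42.5%, against 35.7% of all shared regions and 32.7% of those in protein-coding genes). They lay in 5 genes, with 7 of 19 tested in Tbc1d1, 4 of 6 in Sorcs1, 3 of 7 in Nfatc2, 2 of 2 in Hunk and 1 of 4 in Stxbp5l. The only tested regions of Zfp148 and Zfp69 did not pass. The median ratio of the highest to the lowest strain mean was 2.29 in the 40 regions and 2.18 in all shared regions. Of the 17 regions, 14 were intronic, 2 were at start sites and 1 overlapped an exon. CAST had the highest mean in 7 of them and AJ the lowest in 6, while B6, NOD and NZO had the highest in none. Over all shared regions past the test, CAST was highest in 14.3% and AJ lowest in 12.0%, and B6, NOD and NZO were highest in 10.2%, 11.4% and 11.8%. CAST was lowest in 1 of the 17 regions, against 30.5% over all shared regions past the test. AJ was highest in 4 of the 17, against 17.3%. Leaving out any single sample kept 7 of the 17 calls, and the other 10 were lost without at least 1 sample, with 6 or 7 calls lost without either CAST sample, either WSB sample or the AJ male, 5 without the AJ female and 4 without either NOD sample.

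Single strains were also set against the mean of the other strains. At least 1 of the 8 contrasts passed in 15 of the 40 regions (37.5%, against 37.5% of all shared regions). CAST differed in 8 regions (20.6% of all shared regions), higher in 7 and lower in 1. AJ differed in 6 (6.81% of all), higher in 1 and lower in 5. For 129, 4 regions passed (3.09% of all), 2 in each direction. PWK passed in 4 (11.1% of all), higher in 1 and lower in 3. WSB passed in 3 (5.81% of all), higher in 1 and lower in 2, and B6 in 1 (3.13% of all), which was lower. NOD (3.02% of all) and NZO (5.19% of all) passed in 0 of the 40 regions by limma, with 7 regions each at an unadjusted p under 0.05. The contrasts share samples, so these counts are not independent of one another. The directions of the contrasts over all shared regions were not counted.

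**Figure D2:**
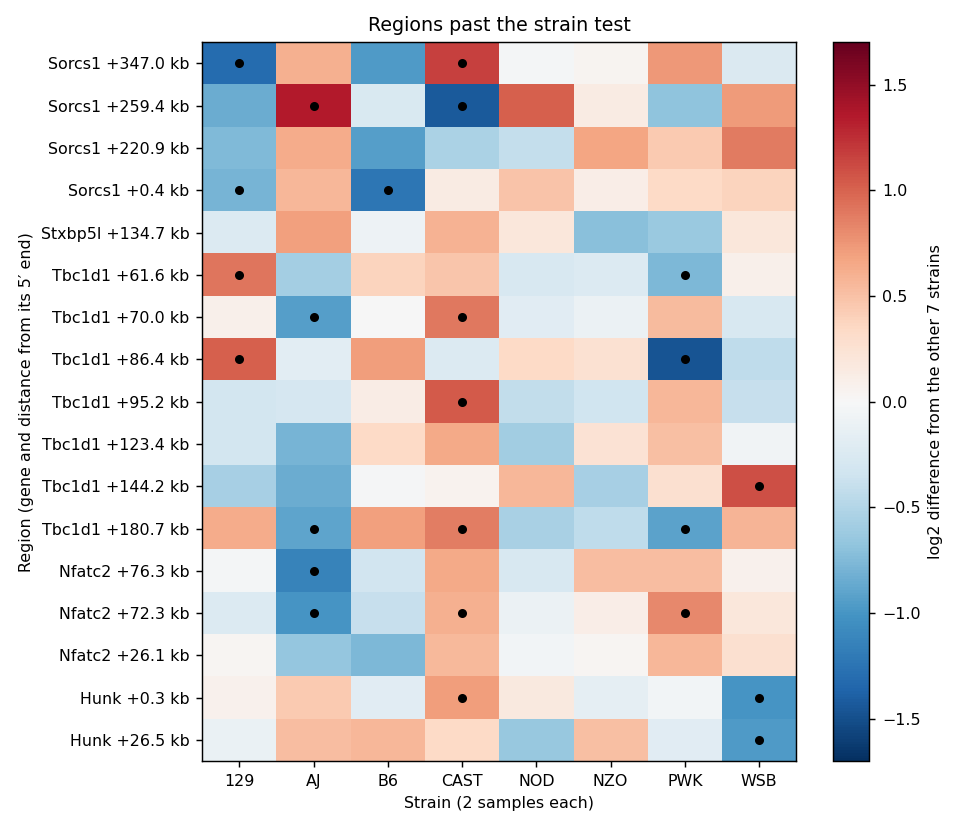
log2 difference of each strain (columns, 2 samples each) from the mean of the other strains in the 17 regions past the strain test (rows, gene and distance of the region's middle from the gene's 5′ end in kb); black dots mark contrasts with an adjusted p-value under 0.05. The lowest value was that of PWK in the Tbc1d1 region at 86.4 kb, and WSB was low in both Hunk regions.

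Sex passed in 0 of the 40 regions and in 0 of all shared regions (0%) by limma, with 1 and 1621 regions at an unadjusted p under 0.05. Strain class, tested on the 8 strain means, also passed in 0 of the 40 regions, against 14 of all shared regions (0.0342%). At an unadjusted p under 0.05, 3 regions of the 10 genes remained, all in introns. The Tbc1d1 region at 86.4 kb was lower in wild-derived strains by a log2 difference of -0.99 ± 0.30 (SE, adjusted p = 0.232). The Nfatc2 regions at 72.3 and 26.1 kb were higher there by 0.75 ± 0.26 and 0.65 ± 0.24 (adjusted p = 0.277 and 0.309).

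Promoter sequences of some of the genes are shown here before the start-site values, and their part in the signals was not tested. They are the bases just before the RefSeq transcript start (GRCm38.p6, 5′ to 3′ on the gene's strand) of the member with the clearest strain difference at its start site (Sorcs1), of Zfp69 and Stxbp5l, which were among those called there in every sample without passing the test, of Ifi202b, which was among those with no call there in some strains, and of Lepr, whose upstream transcript start fell in no region of any sample. Bases that an annotated exon covers were left out. Capitals mark GC boxes, CCAAT motifs and ETS motifs on either strand, and the paired ETS motifs of Zfp69 adjoin a GC box. In the order shown, the windows are chr19:50678647-50678896, chr4:120951702-120951951, chr16:37384963-37385208, chr1:173982845-173983094 and chr4:101717157-101717403, the first 4 on the minus strand and the last on the plus strand.
Sorcs1: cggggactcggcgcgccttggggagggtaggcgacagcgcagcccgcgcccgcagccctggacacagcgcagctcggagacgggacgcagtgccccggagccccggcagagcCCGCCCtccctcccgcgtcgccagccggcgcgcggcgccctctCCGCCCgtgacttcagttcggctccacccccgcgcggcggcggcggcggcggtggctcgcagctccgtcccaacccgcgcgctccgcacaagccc
Zfp69: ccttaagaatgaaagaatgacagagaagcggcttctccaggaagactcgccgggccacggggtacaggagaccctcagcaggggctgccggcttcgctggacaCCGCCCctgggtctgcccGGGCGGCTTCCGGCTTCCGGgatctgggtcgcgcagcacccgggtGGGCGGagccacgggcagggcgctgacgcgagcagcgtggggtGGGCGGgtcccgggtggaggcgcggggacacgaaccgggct
Stxbp5l: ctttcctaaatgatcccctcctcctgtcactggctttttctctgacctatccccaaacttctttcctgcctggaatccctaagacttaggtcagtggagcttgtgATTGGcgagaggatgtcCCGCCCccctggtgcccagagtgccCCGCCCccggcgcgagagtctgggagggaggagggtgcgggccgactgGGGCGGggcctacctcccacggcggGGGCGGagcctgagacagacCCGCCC
Ifi202b: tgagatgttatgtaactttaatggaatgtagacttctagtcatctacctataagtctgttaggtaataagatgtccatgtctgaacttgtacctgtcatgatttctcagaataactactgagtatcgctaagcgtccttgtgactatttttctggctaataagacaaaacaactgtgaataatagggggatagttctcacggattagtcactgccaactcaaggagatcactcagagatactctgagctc
Lepr: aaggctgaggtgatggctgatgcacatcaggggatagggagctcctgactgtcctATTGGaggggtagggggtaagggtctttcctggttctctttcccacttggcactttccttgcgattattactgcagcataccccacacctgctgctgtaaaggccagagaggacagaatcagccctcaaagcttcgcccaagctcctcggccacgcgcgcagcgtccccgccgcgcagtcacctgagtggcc

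The GC box, which zinc-finger factors of the Sp and Klf families bind, was searched as GGGCGG. The motif of ETS factors was searched as CCGGAAG. The Sorcs1 window held 2 GC boxes, the Zfp69 window 4 GC boxes and 2 ETS motifs, and the Stxbp5l window 5 GC boxes and 1 CCAAT motif. The Ifi202b window held none of the motifs searched, and the Lepr window held 1 CCAAT motif. The table holds 15 promoters of the 10 genes. Over the whole 300 bases, a GC box was present in 9 of these (60%, against 36.0% of 31396 promoters), an ETS motif in 3 (20.0%, against 9.0%) and a CCAAT motif in 2 (13.3%, against 37.3%). Some of the 15 promoters overlap, so they are not independent of one another. TATAAA was found in 1 promoter each of Ifi202b and Nfatc2 (13.6% of promoters), the NFAT letters GGAAAA in 1 each of Lepr and Zfp148 (23.3%) and the FOXA letters TGTTTAC in 1 of Nfatc2 (3.71%). No promoter of the 10 genes held the cAMP response element TGACGTCA, the E box CACGTG, the YY1 letters AAGATGG or the AP-1 letters TGANTCA. GC content over the 300 bases ran from 37.0% at Ifi202b to 81.7% at a Zfp148 start. A match is only a match of letters in the B6 reference.

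Sorcs1 encodes a sorting receptor with a VPS10 domain that acts in the making of insulin granules. Its start-site region, chr19:50677178-50679230, had the smallest strain p-value of all 40 regions (adjusted p = 0.00134). The female and male scaled signals were 0.691 and 0.831 in B6 and 0.914 and 1.07 in 129. In every other strain they were higher, from 1.59 in the NZO female to 2.38 in the NOD female. The B6 and 129 samples therefore did not overlap with those of the other 6 strains. B6, at 0.761 ± 0.0996 (SD, n = 2), was lower than the mean of the others by a log2 difference of -1.22 ± 0.17 (SE, adjusted p = 0.00294), and 129 by -0.79 ± 0.17 (adjusted p = 0.0296). The strain means ran up to 2.26 ± 0.0663 in AJ, a ratio of 2.97. Without any single sample the adjusted p stayed between 0.000651 and 0.00767, but on the deposited mean signal in place of the summit it was 0.322. An antisense gene, Gm26629, shares this region, and the lists do not separate them.

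**Figure D3:**
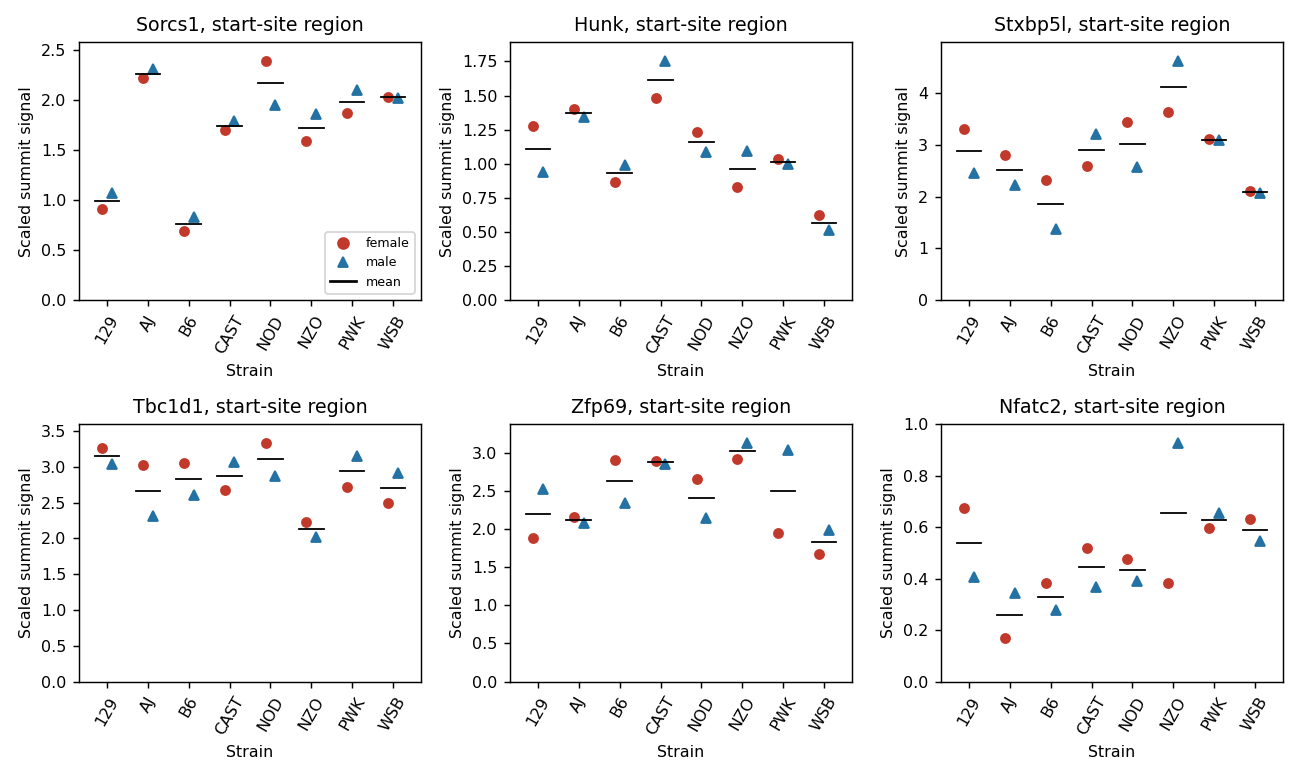
Scaled summit signal in the start-site region with the highest median of 6 genes, by strain; red circles are females, blue triangles males and black lines the mean of both, with each axis starting at 0. B6 and 129 were lowest for Sorcs1 and WSB for Hunk, and only these regions passed the strain test.

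B6 and 129, the lowest strains at the start of Sorcs1, were also lowest in its introns at 347 and 221 kb, but not at 259 kb. At 259 kb into the gene (chr19:50418469-50420011), AJ was highest, with 2.43 in the female and 2.29 in the male, followed by NOD with 2.19 and 1.68. CAST was lowest, with 0.425 and 0.434, and 129 had 0.431 and 0.870. The strain means differed 5.50-fold between AJ and CAST, the widest ratio among the 17 regions, and the strain test gave an adjusted p of 0.00154. AJ exceeded the others by 1.35 ± 0.26 and CAST was lower by a log2 difference of -1.43 ± 0.26 (SE, adjusted p = 0.0142 and 0.00187). At 347 kb (chr19:50331114-50332121), CAST was instead the highest, with 1.48 and 1.40, and 129 the lowest, with 0.207 and 0.464 (adjusted p = 0.00561). B6 followed with 0.381 and 0.398. CAST thus ranked at opposite ends in these introns, and the PWK female alone, at 1.52, exceeded it in the second. A weaker region at 221 kb passed with an adjusted p of 0.0288, and lost the call without any of 8 single samples from AJ, CAST, NOD and WSB (adjusted p between 0.0506 and 0.0719).

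Calls at Sorcs1 were scarcest in 129, with 6 regions in the female and 11 in the male, and most frequent in WSB, with 46 and 35. The region at 474 kb (chr19:50203905-50204799) had a call in 14 samples and was missing in both 129 samples only, with AJ highest at 0.754 and 0.545. Among the 50% of peaks with the highest significance in each list, called the stronger peaks below, 7 of these 14 calls remained. A region at 426 kb, near an annotated internal start, was called in both CAST samples alone, at 0.245 and 0.154, and in 0 samples among the stronger peaks.

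Stxbp5l encodes tomosyn-2, which binds the fusion machinery of granules and restrains insulin secretion. Its start-site region, chr16:37383658-37385594, was called in all 16 samples and was among the stronger of the 40. NZO had the highest values, 3.63 in the female and 4.62 in the male. B6 had 2.33 and 1.37 and WSB 2.10 and 2.07, the lowest strain means. The B6 and WSB samples all lay below the NZO samples, but the test across strains missed the threshold (adjusted p = 0.0699). It passed with no centring (0.0480), without the NZO female (0.0300) and without the B6 female (0.0492). In an intron at 135 kb (chr16:37249467-37250975) strain passed with an adjusted p of 0.0368, with means from 0.634 ± 0.0990 in NZO to 1.52 ± 0.273 in AJ (SD, n = 2). On the deposited mean signal the adjusted p of this intron region was 0.326. With AJ, CAST, NZO or WSB left out altogether it was between 0.0509 and 0.0824. NZO, the highest strain at the start site, was the lowest here. This call was lost without any of 9 single samples, namely the 129 female, the AJ male, the NZO male or a CAST, NOD or WSB sample (adjusted p between 0.0505 and 0.0893). No single-strain contrast passed in any Stxbp5l region.

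Stxbp5l had 6.96 regions per 100 kb, a density above that of only 12.7% of genes of like length, and from 4 calls in the NZO female to 11 in the PWK female. Both PWK samples alone called a region at 12.1 kb, with 0.177 in the female and 0.375 in the male, and another at 47.3 kb, with 0.145 and 0.156. Neither was called among the stronger peaks.

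Tbc1d1 encodes a GTPase-activating protein for Rab proteins that insulin signalling and AMP kinase restrain, and that controls the traffic of glucose transporters in muscle. It was the most densely called large gene, and its strongest region was intronic, at 29.2 kb (chr5:64184848-64186147), with a median of 7.21 and a range from 3.96 in the NZO male to 9.78 in the NOD female. That region did not pass the strain test (adjusted p = 0.203). The region that holds the upstream RefSeq start (chr5:64158710-64163599) has its middle at 4.8 kb and does not reach the gene's annotated 5′ end. It was also even, with strain means from 2.13 ± 0.153 in NZO to 3.15 ± 0.152 in 129. Its adjusted p of 0.454 became 0.0354 with no centring. An internal start at 73.6 kb ranged from 2.05 in the WSB male to 3.44 in the PWK male (adjusted p = 0.213).

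The 7 Tbc1d1 regions that passed were all within the gene, from 61.6 to 181 kb. At 181 kb (chr5:64336264-64337802) the samples fell into 2 sets that did not overlap. CAST (1.87 in the female and 1.71 in the male), B6 (1.62 and 1.60), 129 (1.41 and 1.68) and WSB (1.55 and 1.44) were high. AJ (0.569 and 0.636), PWK (0.742 and 0.469), NOD (0.837 and 0.671) and NZO (1.04 and 0.618) were low. Each set held classical and wild-derived strains. The adjusted p across strains was 0.00154, at most 0.00849 without any single sample and 0.0584 on the deposited mean signal. Against the other strains, AJ and PWK were lower by log2 differences of -0.90 ± 0.21 and -0.91 ± 0.21, and CAST was higher by 0.87 ± 0.21 (SE, adjusted p = 0.0260, 0.0118 and 0.00902).

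At 86.4 kb (chr5:64241763-64243649) PWK was low, with 0.307 and 0.344, and 129 was high, with 1.71 and 1.38. The B6 samples spread from 0.855 in the male to 1.88 in the female, so B6 and 129 overlapped. PWK differed from the others by -1.46 ± 0.24 and 129 by 1.01 ± 0.24 on the log2 scale (SE, adjusted p = 0.00143 and 0.0376), and the strain test gave 0.00373. At 61.6 kb the same strains stood at the ends, 129 with 2.22 and 2.03 and PWK with 0.871 and 0.656 (adjusted p across strains 0.00674). At 95.2 kb CAST was alone at the top, with 1.74 and 1.85 against at most 1.47 in any other sample. This call, with an adjusted p of 0.0238, was lost without the CAST female (0.0991), the CAST male (0.121), the NOD male (0.0534), the WSB female (0.0525) or the WSB male (0.0537). At 144 kb WSB was highest, with 1.58 and 1.03, and the adjusted p of 0.0203 became 0.0808 without the WSB female. Both NZO samples alone called a region at 182.8 kb, at 0.136 and 0.145, and both CAST samples alone one at 98.9 kb, at 0.0943 and 0.140. Neither was called among the stronger peaks.

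**Figure D4:**
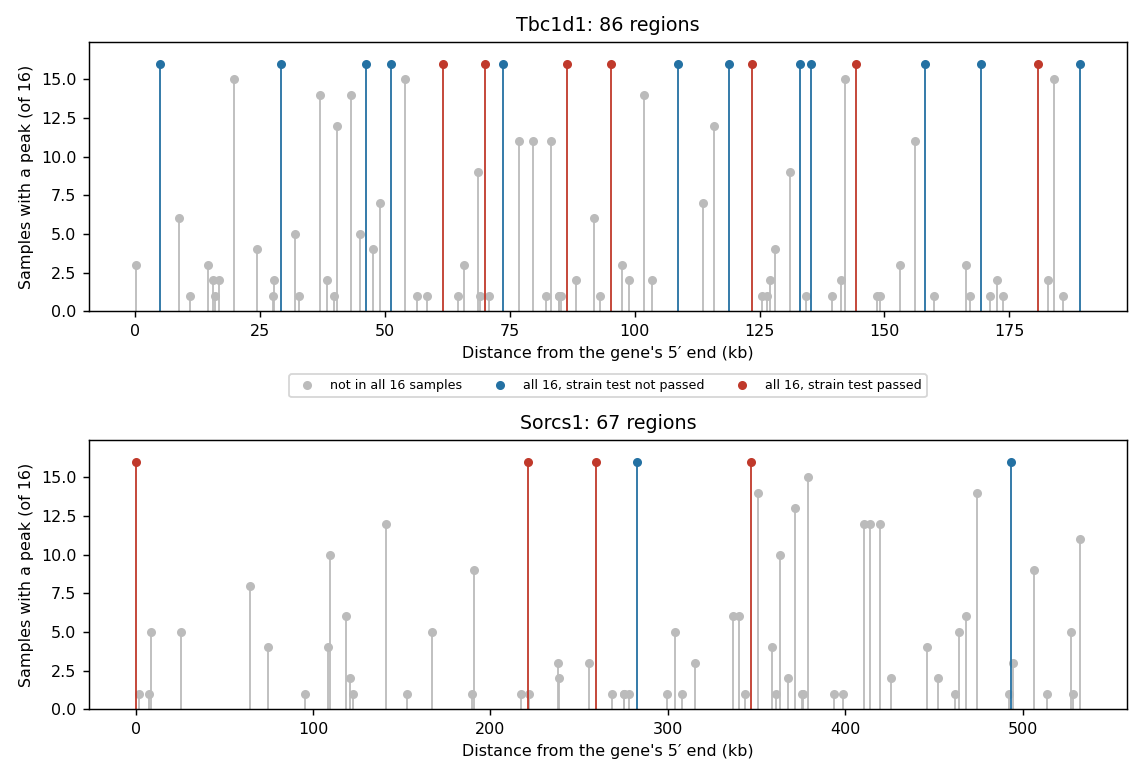
Number of samples with a peak (of 16) in each region of Tbc1d1 and Sorcs1 against the distance of the region's middle from the gene's 5′ end in kb; red marks regions past the strain test, blue other regions called in all 16 samples and grey the rest. The 7 red Tbc1d1 regions lie between 61.6 and 181 kb, and the Sorcs1 start site is red.

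Nfatc2 encodes a transcription factor that calcineurin moves to the nucleus when calcium rises and that has a role in beta-cell proliferation. Of its 3 regions past the strain test, all were intronic, and AJ had the lowest or the second lowest strain mean in each. At 72.3 kb (chr2:168528654-168530075) AJ had 0.338 and 0.364, below every other sample, and PWK had 1.00 and 1.19, with CAST at 0.915 and 0.993. AJ was lower than the others by -1.0 ± 0.20, and PWK higher by 0.82 ± 0.20 and CAST by 0.60 ± 0.20, on the log2 scale (SE, adjusted p = 0.0152, 0.0179 and 0.0480). The strain test gave 0.00825, and 0.0621 with AJ left out altogether. At 76.3 kb AJ had 0.492 and 0.436, again the lowest of all samples, and differed by -1.13 ± 0.25 (SE, adjusted p = 0.0212). Its strain call of 0.0236 was lost without the AJ female (0.0797), the AJ male (0.0941) or the CAST female (0.0592). At 57.1 kb (chr2:168544032-168545145) both AJ samples lacked a call that all other samples had, with values from 0.276 in the 129 female to 1.01 in the CAST female. Among the stronger peaks, 10 of these 14 calls remained, and 4 strain lists held the region.

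AJ also had the fewest calls in this gene, with 7 in each sample, while the NZO male had the most, with 23. The AJ male had the shortest list of all samples. The list of the AJ female was longer than those of the 129 and NOD samples, which called 8 to 12 regions of the gene. The part of list length in these counts was not tested. The region at the 5′ end of Nfatc2 was called in only 5 samples. The start-site region with the highest median lies at an internal start, at 12.4 kb. This internal region was weak, from 0.169 in the AJ female to 0.927 in the NZO male, and did not pass the strain test (adjusted p = 0.131). It passed with no centring (0.0182), without the NZO female (0.0179) and without both NZO samples (0.0409).

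Hunk encodes a kinase related to AMP kinase, first described in mammary tissue. Its start-site region, chr16:90384898-90387782, was lowest in WSB, with 0.623 in the female and 0.511 in the male, below each of the other 14 samples. CAST had 1.48 and 1.75, and AJ followed with 1.40 and 1.35. WSB was lower than the others by -1.0 ± 0.19 and CAST higher by 0.71 ± 0.19 on the log2 scale (SE, adjusted p = 0.00791 and 0.0177). The strain test gave 0.0129, and the call was lost without the WSB female (0.0504), the WSB male (0.0911) or the CAST male (0.0549). In an intron at 26.5 kb (chr16:90412064-90412895) WSB was low again, with 1.41 and 1.19, next to NOD with 1.50 and 1.67. The highest sample was the AJ female, with 4.06. WSB differed by -0.97 ± 0.24 (SE, adjusted p = 0.0302). The strain call of 0.0208 was lost without the WSB female (0.0664), the WSB male (0.0814) or the NOD female (0.0549).

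A further Hunk intron at 8.8 kb (chr16:90394455-90395186) was called in 12 samples and in no NOD or WSB sample, with CAST at 1.14 and 1.33 and the other called samples between 0.190 and 0.938. WSB thus had low or unlisted signal in each of these Hunk regions. CAST samples called the most Hunk regions, 15 each, and NOD samples 4 each. Both CAST samples alone called a region at an internal start at 13.5 kb, at 0.311 and 0.375, which also remained among the stronger peaks of both lists. They alone also called an intronic region at 42.4 kb, at 0.255 and 0.132. Only 1 of these calls remained among the stronger peaks, and 0 strain lists held the region.

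Zfp69 encodes a zinc-finger protein, and a locus holding it goes with high blood glucose in obese mice. Its start-site region, chr4:120950859-120953153, was called in all 16 samples, among the stronger peaks of every list and in all 8 strain lists. The scaled signal ran from 1.67 in the WSB female to 3.13 in the NZO male, with a median of 2.43. Strain means reached from 1.83 ± 0.225 in WSB to 3.02 ± 0.151 in NZO (SD, n = 2). The strain test detected no difference with these samples (adjusted p = 0.274). With no centring, the start-site region passed, with an adjusted p of 0.0195. The only other region, 2.2 kb upstream, was called in the B6 female and the CAST female.

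Zfp148 encodes a zinc-finger factor that binds GC-rich promoters. An intronic region at 66.1 kb (chr16:33446472-33447303) was its only one called in all samples, with a median of 2.93 and an adjusted p of 0.0944. It passed with no centring (0.0063), without the NZO female (0.0205) and without both NZO samples (0.0385). The PWK male was lowest, at 1.72, and the CAST female highest, at 4.83. The region at its upstream start, chr16:33380046-33382739, was called in 14 samples, from 0.337 in the B6 male to 1.48 in the 129 female, and in neither AJ sample. It is shared with the divergent noncoding gene 1700007L15Rik. Only 9 of the 14 calls remained among the stronger peaks. Another start at 19.6 kb was called in 15 samples, all but the AJ male, and over the samples that called it the strain test gave an adjusted p of 0.0600. Both PWK samples alone called an intronic region at 112.7 kb, at 0.210 and 0.250. It was called in 0 samples among the stronger peaks and in 0 strain lists.

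Tsc2 encodes tuberin, which with its partner Tsc1 holds the growth kinase complex mTORC1 in check. Its start-site region, chr17:24632133-24632981, also holds the start of Nthl1, a DNA repair gene that is read in the other direction, so the signal belongs to both. It was called in 13 samples, with CAST at 1.31 and 1.10 and the NZO male highest at 1.40, and was missing in both AJ samples and the B6 male. The NZO female had 0.395. The NZO male had the highest sums of acinar, duct, endothelial and leukocyte markers and the lowest of alpha and delta markers. The part of other cells in the Tsc2 values was not tested. Near the 3′ end, a region at 34.1 kb was called in 12 samples. A region overlapping an exon at 31.2 kb was called in both samples of CAST (0.613 and 0.581) and WSB (0.274 and 0.239) and in the B6 female (0.321). CAST samples called 5 and 4 of the 5 regions, and the AJ male none.

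Lepr encodes the leptin receptor, whose loss causes obesity and diabetes in mice. No region of this gene was called in more than 6 samples, and each sample called from 0 to 3 of its 12 regions. The 4 regions near annotated starts were each called in a single sample, at signals from 0.102 to 0.221, the highest in the NOD female at 0.7 kb. The region with most calls, at 88.5 kb in an intron, was called in B6 and NOD of both sexes, the 129 female and the AJ male, with values from 0.207 to 0.327. The strongest signal in the gene was found in AJ alone, at 52.0 kb in an intron (chr4:101769341-101769550), with 0.538 in the female and 0.836 in the male. It was the only Lepr region called among the stronger peaks of both samples of a strain. It is shown because of its sequence, given on the plus strand of GRCm38.p6 in lower case with no part in capitals.
Lepr intron: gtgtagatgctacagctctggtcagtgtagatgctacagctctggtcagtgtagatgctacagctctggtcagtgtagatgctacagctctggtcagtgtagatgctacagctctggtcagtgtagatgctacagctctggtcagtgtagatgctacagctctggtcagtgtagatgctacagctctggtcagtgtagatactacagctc

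This stretch of 210 bases is a tandem repeat with a unit of 24 bases, in which 8 exact copies follow one another, and 99.5% of its bases equal the base one unit further on. A read that lies wholly within such copies can match several places. How reads were placed here, and how AJ differs from the B6 reference in the number of copies, was not tested. A neighbouring region at 52.7 kb was likewise called in AJ alone, at signals of 0.0154 and 0.109.

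Ifi202b encodes an interferon-inducible protein of the Ifi200 family, a cluster of closely similar genes. None of its 15 regions was called in AJ, B6 or PWK, and 1 was called in the CAST male. The 129 samples called 9 and 8 regions, the NOD samples 7 and 9, the NZO samples 3 and 5 and the WSB samples 1 and 4. The start-site region, chr1:173982141-173983093, was called in both 129 samples (0.466 and 0.275), both NOD samples (0.221 and 0.354) and the WSB male (0.216). Both 129 samples alone called an intronic region at 10.8 kb, at 0.276 and 0.159. A region at 5.3 kb that overlaps an exon had the most calls, in 8 samples, at values from 0.103 in the CAST male to 0.466 in the 129 female. The highest value in the gene, 0.909, was a call of the NZO male alone, upstream of the start by 0.7 kb. Apart from it, every signal was below 0.5, and among the stronger peaks only 3 calls were left in the gene, each in a single sample. B6 is the strain of the reference genome, and the B6 lists were longer than those of 129 and NOD. The part of list length in these calls was not tested. How reads shared between family members were placed was not stated. Summed leukocyte marker signal, given because immune cells express this family, had strain means of 0.225 in 129, 0.232 in NOD, 0.893 in NZO and 0.296 in WSB, against 0.308 in AJ, 0.355 in B6, 0.148 in CAST and 0.505 in PWK. The part of leukocytes in these calls was not tested.

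**Figure D5:**
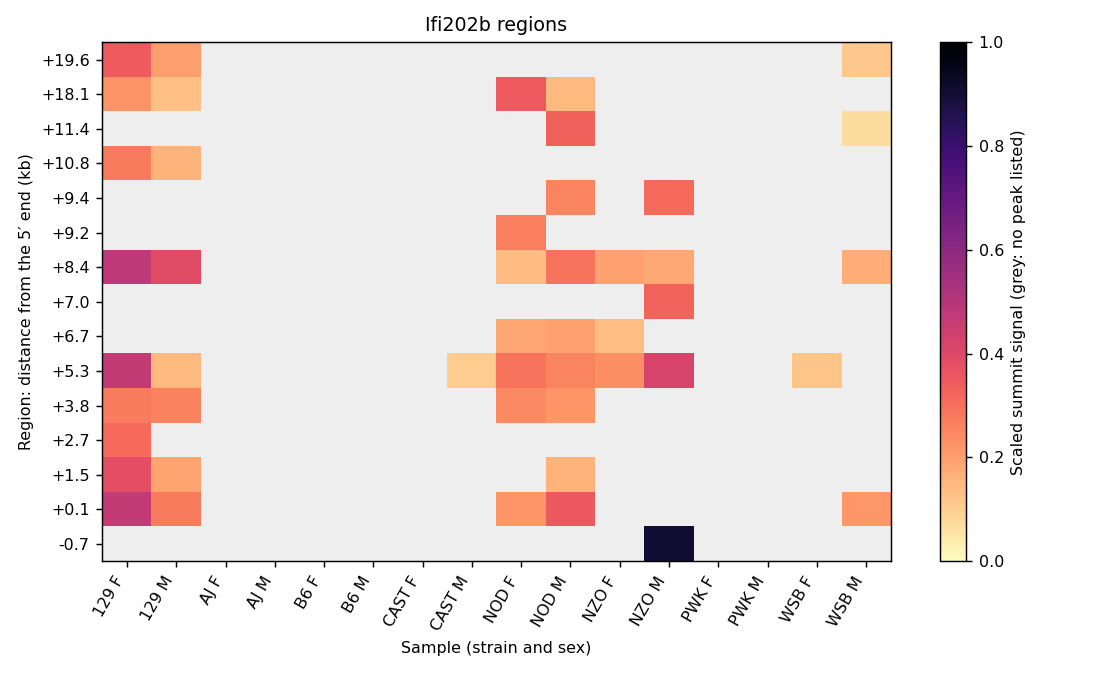
Scaled summit signal in the 15 Ifi202b regions (rows, distance of the region's middle from the 5′ end in kb) in each sample (columns, F female and M male); grey means that no peak was listed. Calls lie in 129, NOD, NZO and WSB and in the CAST male, with 0 in AJ, B6 and PWK.

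The strongest start-site regions of 57 annotated partner genes were examined for the pathways in which the members act, and 41 of them were called in all samples. Of these, 8 passed the strain test (35.7% of all shared regions did). In the list of TSC and mTORC1 genes 2 of 7 tested passed, Akt1 (2.01 ± 0.112 in CAST against 0.734 ± 0.145 in AJ, adjusted p = 0.0223) and Tsc1 (0.947 ± 0.589 in NZO against 0.286 ± 0.00722 in NOD, adjusted p = 0.0499). In the list of Rab and glucose transport genes 2 of 5 passed, Slc2a2, the glucose transporter of the beta cell (2.87 ± 0.538 in NZO against 0.888 ± 0.0888 in NOD, adjusted p = 0.0109), and Rab8a (15.3 ± 1.73 in AJ against 7.39 ± 0.620 in WSB, adjusted p = 0.0321). In the list of tomosyn and SNARE genes 2 of 5 passed, Stxbp5, the paralogue of Stxbp5l (8.66 ± 0.973 in AJ against 3.20 ± 0.333 in CAST, adjusted p = 0.00817), and Syt7, a calcium sensor of exocytosis (2.81 ± 0.255 in CAST against 1.28 ± 0.413 in B6, adjusted p = 0.0159). Ppp3r1, the regulatory subunit of calcineurin, passed among 7 calcineurin and NFAT genes (adjusted p = 0.0395), and the kinase Mark2 among 6 kinases related to AMP kinase (adjusted p = 0.00694). In the lists for leptin signalling, VPS10 receptors, the Ifi200 family and GC-box zinc fingers, 0 of 4, 0 of 2, 0 of 1 and 0 of 4 tested start sites passed. Errors are SD over both sexes of a strain.

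Over the middle 200 bases of the 40 shared regions, GC content had the same median as over all shared regions, 48.0%. GC boxes were present in 3 of the 40 windows (7.50%, against 13.4% of all shared windows), CCAAT in 5 (12.5% against 22.3%), TATAAA in 7 (17.5% against 9.89%) and the E box in 4 (10.0% against 3.58%). The counts are small, and they are given as a description.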

How the data were processed

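ATAC-seq peak lists of 16 islet samples, 1 female and 1 male of each of 8 mouse strains, were analysed. Per the methods of the study and the submitters' processing notes, the authors trimmed reads with cutadapt 2.0, aligned them to mm10 with Bowtie2 2.3.4.1, removed duplicates with Picard 2.9.2 and mitochondrial reads, and called peaks per sample with MOSAiCS (FDR 0.05). A shift for the transposase cut was not stated. The authors aligned the samples to the B6 reference and also to individualized genomes of the strains. The lists used here are of the B6 reference, and the part of strain variants in these signals was not tested. The deposited signal of a peak is a whole number at its summit that the authors did not scale to depth, and a deposited mean signal served as an alternative. The authors deposited the significance of a peak as a −log10 p-value, used here only to rank peaks, and the irreproducible discovery rate (IDR) of each strain list on a −log10 scale, used at 0.05. The lists hold no read totals and reads per sample were not used here, so no interval that needs counts is given.

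Peaks of chromosomes 1 to 19 were merged into regions and annotated with GENCODE M21, of the same assembly as mm10, and the last peak of each chromosome lay within the reference. Summit signals were transformed as log2(signal + 1) and centred on each sample's median over the regions called in all 16 samples. A change common to most shared regions of a sample would be removed by this step. Strain (F test), sex and single-strain contrasts were fitted with limma 3.58.1 in a model of strain and sex, and strain class on the 8 strain means, across all shared regions, with Benjamini-Hochberg adjusted p-values. Errors of contrasts are standard errors. The strain, NZO and sex fits had to recover known shifts in simulated data. The strain class fit was run on the same data without this requirement. The study tested read counts, which a signal is not. Shares per sample were compared with exact permutation tests.

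The genes, the partner and marker lists and the tests were chosen with earlier results of these data known. For each gene, the text names the start-site region (within 1 kb of a transcript start) with the highest median signal, the region with the smallest strain p-value, and up to 2 regions called in both samples of 1 strain alone or missing in 1 strain alone. Partner genes are named if their start-site region passed. Other regions were named after their values were seen. Promoter sequences come from the RefSeq table and the genome of GRCm38.p6. Alternatives were another pseudocount, no centring, quantile normalization, regions called in at least 12 samples, the mean signal, peaks covering at least 0.5 of a region, the 50% of peaks with the highest significance, equal numbers of peaks, the gene body alone, no sex term, and leaving out each sample or strain.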

Additional observations from a re-analysis of the deposited data

How the results depend on the processing

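Of the 40 shared regions, 17 passed the strain test. The count was 31 with no centring, which called 63.2% of all shared regions, 9 on the deposited mean signal, 7 of 21 among the stronger peaks and 0 of 1 where peaks had to cover at least 0.5 of a region, a rule that left 1 region to test. It was 10 without AJ, 9 without CAST, and 10 to 23 without single samples, with 10 without the CAST female, the CAST male or the WSB female and 11 without the AJ male or the WSB male. The count of regions with any strain contrast, 15, was 35 with no centring, 23 of 51 over regions called in at least 12 samples, 7 on the mean signal, 0 of 1 under the coverage rule and 8 of 21 among the stronger peaks. Without single samples it was 9 (CAST male) to 23 (NZO female). Without 1 sample, the other sample of its strain is assumed to vary like the rest. Sex and class passed in 0 regions under every alternative run. The class difference in share, -0.00091 per 10000, was 0.795 among the stronger peaks, 0.521 with equal numbers of peaks, 0.192 without 129, 0.0152 without AJ, -0.290 without B6, -0.530 without CAST, 0.0590 without NOD, 0.0200 without NZO, 0.436 without PWK, 0.0912 without WSB, and -0.483 to 0.481 without single samples, and passed under none of these. The sex difference in share, 0.649, was 0.617 and passed with equal numbers of peaks (exact p = 0.0078). The causes of these shifts were not tested. Reads per sample were not used, and a missing call says only that no peak was listed. The sex comparisons were paired by strain, and without sex as a term 19 regions passed the strain test.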
